A study of Mus musculus with 9 samples.

Results

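The genes described here encode the axon guidance families, the semaphorins with their plexin and neuropilin receptors, the ephrins with their Eph receptors, the Slits with the Robo receptors, and the netrins with the UNC5 receptors. They were taken by gene symbol, and 67 of the 19094 genes in the files matched. One match, Unc50, shares letters with the UNC5 receptors but is not one of them and is described apart, which leaves 35 ligands, 29 receptors and 2 co-receptors. A mean of at least 1 FPKM (fragments scaled to transcript length and library depth) on at least 1 day was reached by 39 of the 67 rows, and 50 had enough reads to be tested.

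The study followed 3T3-L1 cells, fibroblast-like mouse cells that store lipid after hormonal induction, by RNA sequencing at 3 stages with 3 samples each. Day 0 cells were confluent preadipocytes sampled before induction. By day 4 they had received dexamethasone, IBMX and insulin for 2 days, followed by 2 days of insulin alone in the maintenance medium, which day 8 cells had for 4 days more. All samples are the same unmodified line, cells were pooled at collection and no label names separate cultures, so p-values measure the spread between these samples, which may be technical. The depth was 18216114 to 20452144 expected counts per sample, and the comparisons are called early (day 4 with day 0), late (day 8 with day 4) and whole (day 8 with day 0).

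Guidance proteins carry signals between neighbouring cells. Class 3 semaphorins are secreted and mostly bind a neuropilin that is paired with an A-type or D-type plexin, whereas the other vertebrate semaphorins are held at the membrane or anchored to it and bind plexins directly. Ephrins stay on the surface of one cell and activate Eph receptor tyrosine kinases on the next, Slits bind Robo receptors, and netrins bind DCC, neogenin or UNC5 receptors. Outside the nervous system the same families shape blood vessels and cell contacts, and in fat Slit2 is known as a secreted factor that acts on thermogenic genes.

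The promoters of 4 genes with large changes are shown as examples only: Sema3g, the ligand with the largest rise, and Efnb2, Epha2 and Nrp2, a ligand, a receptor and a co-receptor that fell. Each is the 250 bases before the transcription start in RefSeq (mouse build GRCm38.p6), written 5′ to 3′ on the strand of the gene. Capitals mark matches on either strand. The letters searched were TGANTCA for AP-1, the site known for Jun and Fos. For TEAD factors they were CATTCC. For C/EBP factors they were TTGCNNAA, for the GC box GGGCGG, and for the TATA box TATAAA. The direct repeat bound by PPAR dimers with a base between its repeats (DR1) was searched as well. Neighbouring matches may overlap.
Sema3g, chr14:31217623-31217872, plus strand: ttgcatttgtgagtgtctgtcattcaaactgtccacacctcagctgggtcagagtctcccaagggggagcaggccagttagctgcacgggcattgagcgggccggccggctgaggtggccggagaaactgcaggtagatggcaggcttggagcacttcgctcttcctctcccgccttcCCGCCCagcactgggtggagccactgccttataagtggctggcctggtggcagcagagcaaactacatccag
Efnb2, chr8:8661243-8661492, minus strand: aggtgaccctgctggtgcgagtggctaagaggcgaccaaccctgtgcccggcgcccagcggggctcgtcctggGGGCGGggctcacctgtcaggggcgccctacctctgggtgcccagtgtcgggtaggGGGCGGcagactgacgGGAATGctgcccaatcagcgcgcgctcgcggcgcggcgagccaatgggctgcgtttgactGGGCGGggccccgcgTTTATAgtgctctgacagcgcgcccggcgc
Epha2, chr4:141300971-141301220, plus strand: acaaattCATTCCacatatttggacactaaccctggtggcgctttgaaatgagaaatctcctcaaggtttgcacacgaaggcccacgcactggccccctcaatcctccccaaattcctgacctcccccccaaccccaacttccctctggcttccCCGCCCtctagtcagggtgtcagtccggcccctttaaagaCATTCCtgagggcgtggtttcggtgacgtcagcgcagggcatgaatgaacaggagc
Nrp2, chr1:62703067-62703316, plus strand: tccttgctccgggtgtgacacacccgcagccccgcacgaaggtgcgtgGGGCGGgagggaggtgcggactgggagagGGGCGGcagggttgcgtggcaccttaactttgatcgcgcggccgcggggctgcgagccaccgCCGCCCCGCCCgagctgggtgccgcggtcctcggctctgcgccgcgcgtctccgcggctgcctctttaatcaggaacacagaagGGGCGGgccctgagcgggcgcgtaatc

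Epha2 held 2 matches to the TEAD letters and 1 GC box, Efnb2 held 1 TEAD match, 3 GC boxes and 1 TATA box on the opposite strand, Nrp2 held 5 GC boxes, and Sema3g held 1 GC box. None of these 4 windows held the AP-1 letters, the C/EBP letters or the PPAR repeat. Among 32851 windows of the same length in the table, TEAD letters were present in 12.6%, GC boxes in 32.7%, TATA boxes in 12.4%, C/EBP letters in 9.56%, AP-1 letters in 6.75% and the PPAR DR1 repeat in 0.338%. RefSeq windows were matched for 58 of the guidance genes (74 windows). GC boxes stood in 54 of them (73.0%), TEAD letters in 7 (9.46%), AP-1 letters in 3, C/EBP letters in 3, TATA boxes in 2 and the PPAR repeat in 0. The windows of Epha4, Unc5c and Slit2, which also fell early, held 0 TEAD matches. Those of Plxnd1 and Ntn3, which rose, held 1 each. A match gives the letters only and is not evidence that a factor was bound.

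The labels call all 9 samples adipocytes. The 8 adipocyte marker genes had summed FPKM of 27.5 to 30.3 (day 0), 4598 to 6686 (day 4) and 6687 to 7143 (day 8), with Fabp4 the most abundant, so the day 0 samples did not carry the adipocyte pattern of their label. The 8 preadipocyte and fibroblast genes had summed FPKM of 5939.7 to 6328 (day 0), 4479.8 to 4785 (day 4) and 5060.1 to 5266 (day 8). In bulk RNA, fewer cells of a type and less RNA per cell cannot be told apart. The labels' extraction text speaks of dorsal root ganglia, a tissue rich in guidance receptors. The 9 sensory neuron markers summed to at most 3.19 FPKM and did not move together. Avil, the most abundant at day 0, went from 2.32 FPKM on average to 0.483 at day 8, and Snap25 from 0.0267 to 1.10. Scn10a, a sodium channel that marks those neurons, was at or below 0.01 in every sample. The 5 endothelial markers listed summed to at most 1.14 FPKM with Cdh5 at or below 0.18, and Ptprc, the common leukocyte marker, was at or below 0.04. The 5 macrophage markers summed to 4.31 to 6.63 FPKM (Cd14 highest), and the 5 Schwann and glial markers to 3.51 to 3.84 (day 0), 7.27 to 7.63 (day 4) and 4.92 to 5.98 (day 8, with S100b highest, Sox10 at or below 0.04). The 4 genes of dividing cells summed to 51.8 to 70.7 FPKM at day 0 against 28.8 to 36.2 later.

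A gene was called where the edgeR quasi-likelihood test on expected counts gave a Benjamini-Hochberg adjusted p under 0.05 over all 13154 genes tested and a change above 2-fold. Early, 6 of the 50 tested guidance genes were called higher (12%, against 9.77% of all genes tested) and 13 lower (26.0%, against 7.98%). By the adjusted p alone, 15 were higher (all genes, 35.5%) and 26 lower (all genes, 33.7%). Late, the balance lay the other way, with 8 called higher (16.0%, against 4.24%) and 1 lower (2.0%, against 2.81%), and by the adjusted p alone 24 higher (all genes, 22.5%) and 6 lower (all genes, 22.7%). Over the whole process 9 were called higher (18%, against 10.3%) and 11 lower (22.0%, against 7.7%), and by the adjusted p alone 21 higher (all genes, 34.8%) and 17 lower (all genes, 36.2%). The median log2 fold change of the tested guidance genes was -0.29 early, 0.38 late and 0.13 over the whole process, and that of all genes tested was 0.02, -0.01 and -0.02. With limma on log2(FPKM + 1), which shrinks changes of genes near or below 1 FPKM, 45 of the 87 calls of guidance genes and their partners were lost. In all, 24 of the 50 were called in at least 1 comparison, against 23.9% of all genes tested. Of the edgeR calls, members with a mean of at least 1 FPKM on a day made 4 higher and 10 lower early. They made 5 and 0 late, and 4 and 8 over the whole process. The filter asks for enough counts in 3 samples, so a low member can enter through the day on which it is high. Sema6b, for example, had 17, 15 and 17 counts at day 8 and at most 4 before. Calls of such members are not independent of the filter, here or among all genes.

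Of 29 ligands tested, 5 were called higher (17.2%) and 5 lower (17.2%) early, where the shares of all genes were 9.77% and 7.98%. Late, 7 ligands were called higher (24.1%, all genes 4.24%) and 0 lower (all genes 2.81%), and over the whole process 8 higher (27.6%, all genes 10.3%) and 3 lower (10.3%, all genes 7.7%). Of 20 receptors and co-receptors tested, 1 was called higher (5.0%) and 8 lower (40.0%) both early and over the whole process, and late 1 was called higher and 1 lower (5.0% each), beside the same shares of all genes. The only receptor called higher early or over the whole process was Robo1, which stayed below 0.2 FPKM. Summed over the families, ligand FPKM was 264 ± 7.38 (SD, n = 3) at day 0, 211 ± 11.7 at day 4 and 278 ± 3.58 at day 8. Receptors and co-receptors summed to 461 ± 13.5, 320.1 ± 27.8 and 319.9 ± 0.386 FPKM. The shares of called ligands and receptors include members below 1 FPKM. Whether the ligand and receptor groups differ was not tested.

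**Figure D1:**
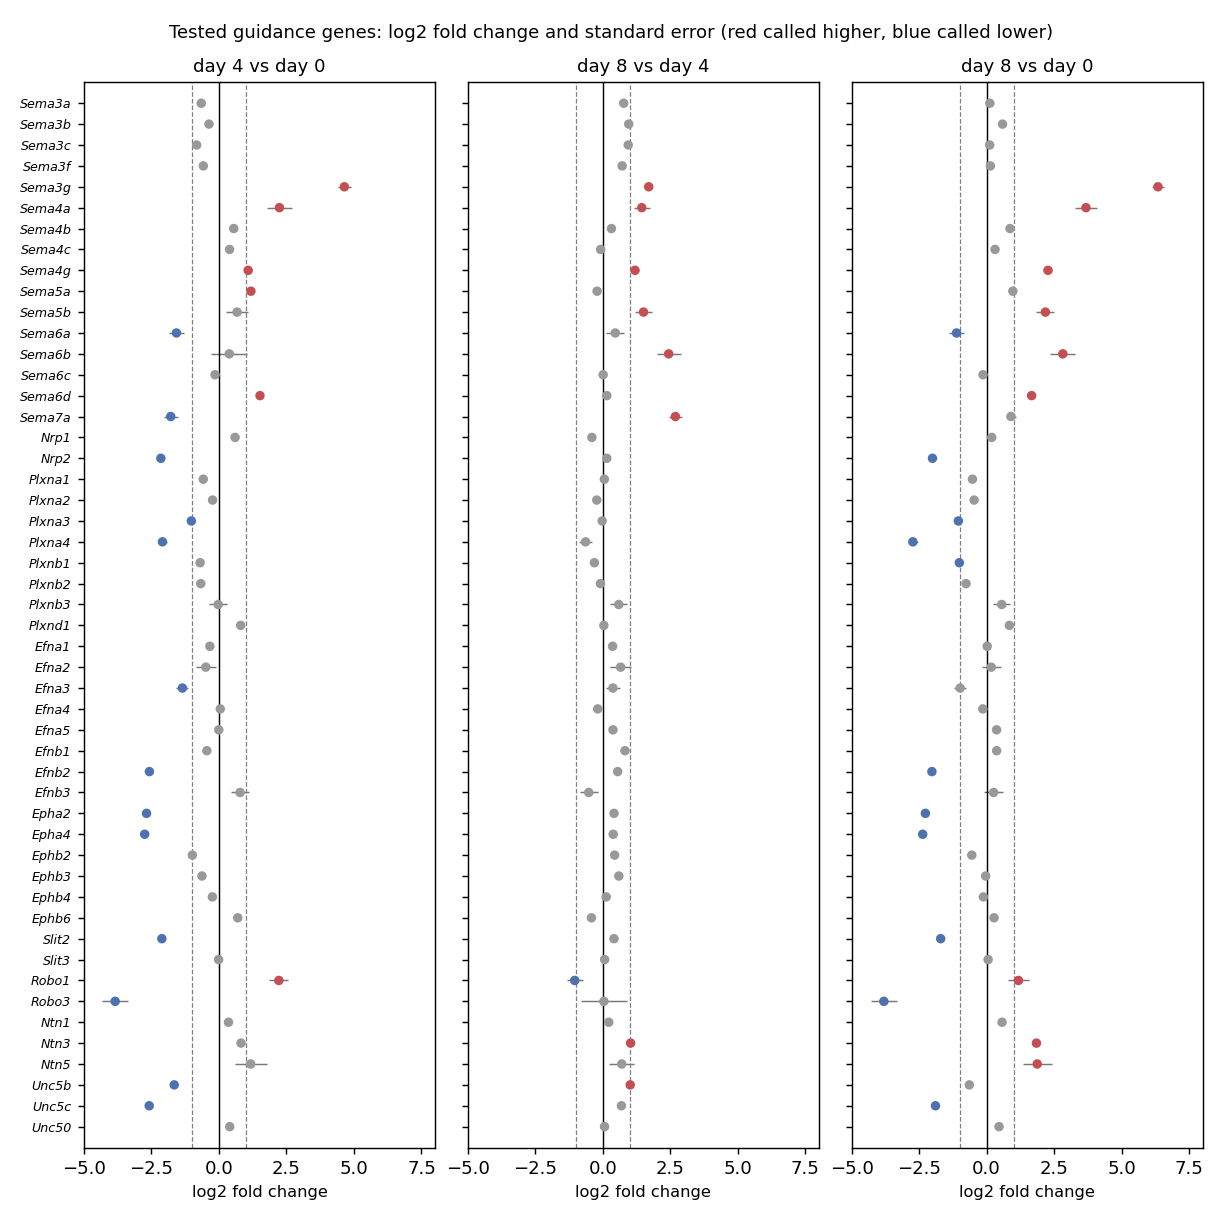
Log2 fold change (x axis) with its standard error for the 50 tested rows (y axis) in the early, late and whole comparisons, from edgeR with 3 samples per day. Red points were called higher and blue points lower, the dashed lines mark 2-fold, and the calls lie mostly on the lower side early (13 against 6) and on the higher side late (8 against 1).

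Secreted class 3 semaphorins made up most of the semaphorin message at day 0. Sema3g (NCBI gene 218877) had the largest change of the tested guidance genes early and over the whole process. Its FPKM was 0.24, 0.31 and 0.20 at day 0, 4.78, 6.19 and 6.83 at day 4 and 14.5, 21.0 and 20.7 at day 8. The 3 days did not overlap, and day 8 replicate 1 stood below the other day 8 samples. Its log2 fold change (± SE) was 4.65 ± 0.253 early (edgeR adjusted p = 9.8e-11), 1.70 ± 0.135 late (4.0e-08) and 6.35 ± 0.222 over the whole process (4.1e-13). Behind the day 0 values were 18, 21 and 15 counts, and behind those at day 8 1081, 1576 and 1526. Its share of the summed class 3 FPKM was 0.386% ± 0.101 (SD, n = 3), 13.4% ± 3.20 and 21.9% ± 4.16 on days 0, 4 and 8.

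The other expressed class 3 semaphorins followed a different course, lower at day 4 than on both other days. Sema3c (20348) read 23.8, 22.4 and 24.5 FPKM at day 0, 13.8, 12 and 12.2 at day 4 and 24.4, 23.5 and 23.0 at day 8. All day 4 samples lay below all others, and the day 0 and day 8 samples overlapped. Its log2 fold change was -0.83 ± 0.0581 early (edgeR adjusted p = 2.3e-09), 0.94 ± 0.0581 late (2.1e-09) and 0.12 ± 0.0561 over the whole process (0.0737), so each phase passed the test under 2-fold, although the late value was 1.01 without day 4 replicate 1. Sema3a, the best known repellent of the family, read 17.4, 16.7 and 17.6 FPKM, then 11.9, 9.31 and 10.1, then 18.2, 17.4 and 16.5. Sema3f, a ligand that prefers neuropilin-2, read 21.6, 20.7 and 22.5, then 15.7, 14.4 and 11.3, then 23.9, 20.5 and 21.8. In both genes the day 4 samples lay below the rest, with log2 fold changes of -0.66 and -0.58 early and 0.78 and 0.72 late (largest edgeR adjusted p = 3.4e-05), and 0.12 and 0.14 over the whole process (adjusted p = 0.124 and 0.166). Sema3b was lower in level, at 2.51 ± 0.129 FPKM (SD, n = 3) at day 0, 1.87 ± 0.156 at day 4 and 3.44 ± 0.0306 at day 8, and it rose late by 0.96 ± 0.0957 (edgeR adjusted p = 5.6e-07), or by 1.04 without day 4 replicate 1. The early and late comparisons share the day 4 samples, so a low value there enters both. Class 3 FPKM summed to 65.2 ± 2.49 at day 0, 44.8 ± 3.17 at day 4 and 85.3 ± 0.769 at day 8, while Sema3d and Sema3e were at most 0.08 FPKM and were not tested.

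**Figure D2:**
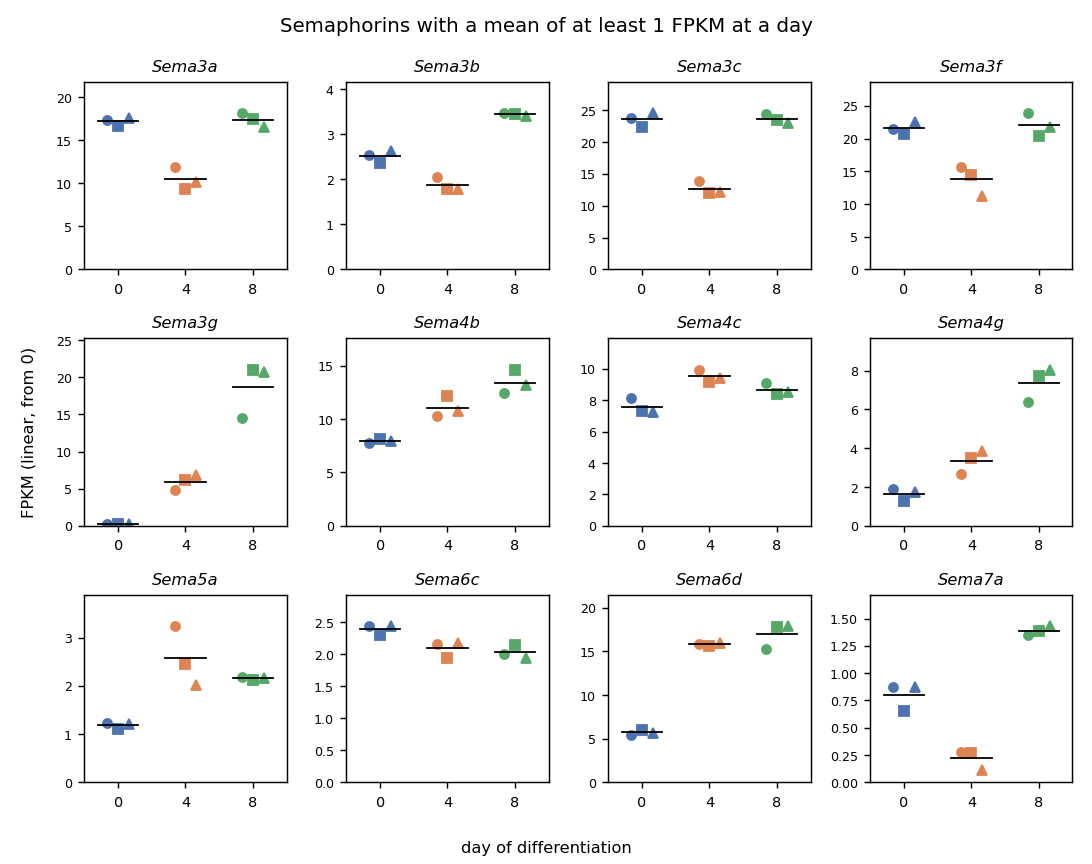
FPKM (y axis, linear from 0) of the 12 semaphorins with a mean of at least 1 FPKM on a day, by day of differentiation (x axis), with a point per sample (circle, square and triangle for replicates 1, 2 and 3) and a line at the mean. Sema3g and Sema4g climb over the days, Sema6d is high from day 4 on, and Sema3a, Sema3c and Sema3f have their lowest samples at day 4.

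Among the membrane-bound semaphorins most calls were higher. Sema6d (214968), a transmembrane ligand of A-type plexins, read 5.49, 6.03 and 5.71 FPKM at day 0, 15.8, 15.6 and 16.0 at day 4 and 15.2, 17.8 and 17.9 at day 8. Its days 4 and 8 overlapped and both lay above day 0. It rose early by 1.52 ± 0.0665 on the log2 scale (edgeR adjusted p = 6.2e-12) and was 1.67 ± 0.0663 over the whole process (1.9e-12), with 0.15 ± 0.0611 late (0.0568). Sema4g (26456), a class 4 transmembrane semaphorin, read 1.88, 1.26 and 1.77 FPKM, then 2.65, 3.50 and 3.86, then 6.40, 7.70 and 8.05, and no days overlapped. Its log2 fold change was 1.08 ± 0.158 early, 1.19 ± 0.133 late and 2.28 ± 0.146 over the whole process (edgeR adjusted p = 1.4e-05, 2.0e-06 and 7.6e-10). The early call was within reach of the 2-fold line and was lost without day 0 replicate 2 (0.93) or without day 4 replicate 3 (0.97), and with limma on log2(FPKM + 0.1) (0.99) or log2(FPKM + 1) (0.72). Sema5a, which carries thrombospondin repeats, read 1.23, 1.10 and 1.22 FPKM, then 3.24, 2.46 and 2.03, then 2.19, 2.13 and 2.16. Its days 4 and 8 overlapped above day 0, and day 4 replicate 1 was the highest sample. The early log2 fold change of 1.18 ± 0.129 (edgeR adjusted p = 5.3e-07) was 0.99 without that sample, and the whole-process value of 0.97 was 1.01 without day 0 replicate 1.

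Sema7a (20361), which is held at the membrane by a lipid anchor and can signal through integrins, fell and then rose. It read 0.87, 0.65 and 0.87 FPKM at day 0, 0.28, 0.27 and 0.11 at day 4 and 1.35, 1.39 and 1.43 at day 8. The 3 days did not overlap, with day 4 lowest and day 8 highest. The log2 fold change was -1.79 ± 0.267 early (edgeR adjusted p = 1.9e-05) and 2.69 ± 0.246 late (2.1e-07), from 19, 18 and 7 counts at day 4. Over the whole process it was 0.90 ± 0.197 (6.5e-04), short of 2-fold. Its plexin, Plxnc1, stayed at or below 0.1 FPKM and was not tested, whereas Itgb1, the integrin chain it also uses, was at 209, 167 and 144 FPKM on average.

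Sema4b and Sema4c were expressed without a call. Sema4b averaged 7.94 ± 0.196 FPKM at day 0, 11.1 ± 0.946 at day 4 and 13.4 ± 1.11 at day 8, a rise of 0.87 ± 0.0739 over the whole process (edgeR adjusted p = 2.4e-08). Sema4c averaged 7.58, 9.50 and 8.67 FPKM, and Sema6c 2.39, 2.09 and 2.04, the latter with adjusted p of at least 0.203 in every comparison. Another 4 semaphorins were called from low levels, below 1 FPKM on average on every day. Sema4a counts were 3, 5 and 3 at day 0, 12, 12 and 28 at day 4 and 50, 47 and 41 at day 8, called higher in all 3 comparisons. Sema5b counts of 6.58, 11.6 and 4.03, then 13.8, 12 and 10.3, then 35.2, 31 and 34.1, and Sema6b counts of 4, 1 and 2, then 2, 4 and 3, then 17, 15 and 17, were called higher late and over the whole process, and without day 0 replicate 2 Sema5b was called higher early too (1.19). Sema6a fell, with counts of 58, 38 and 86, then 23, 21 and 15, then 35, 20 and 24. It was called lower early and over the whole process, and the latter log2 fold change of -1.11 was -0.801 without day 0 replicate 3 and -0.94 without day 8 replicate 2, and -0.87 with limma on log2(FPKM + 0.1). Sema4d and Sema4f stayed at or below 0.12 FPKM and were not tested. All semaphorins together summed to 93.2 ± 2.80, 90.1 ± 3.01 and 139 ± 3.57 FPKM on days 0, 4 and 8.

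The neuropilins, the co-receptors of class 3 semaphorins and of VEGF, parted ways. Nrp2 (18187) read 49.4, 50.6 and 49.3 FPKM at day 0, 11.9, 10.2 and 8.85 at day 4 and 10.8, 12 and 11.7 at day 8. Its days 4 and 8 overlapped and lay far below day 0. Nrp2 fell early (-2.15 ± 0.0780, edgeR adjusted p = 6.7e-13) and was -2.00 ± 0.0775 over the whole process (1.4e-12), with 0.15 ± 0.08 late (0.142). Nrp1 (18186) read 34.2, 33.6 and 34.2 FPKM, then 53.1, 46.4 and 47.9, then 35.7, 36.0 and 36.3. Its day 4 samples lay above all others, with log2 fold changes of 0.60 ± 0.0512 early and -0.40 ± 0.0510 late (edgeR adjusted p = 2.9e-08 and 8.6e-06). The ratio of Nrp2 to Nrp1 FPKM was 1.46 ± 0.0355 (SD, n = 3) at day 0, 0.210 ± 0.0222 at day 4 and 0.320 ± 0.0143 at day 8, so Nrp2 was the more abundant of the pair at day 0 and the less abundant from day 4 on.

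Plexins, the signalling receptors of the semaphorins, were the most abundant receptors of the set, and most of them fell early. Plxnb2 (140570) read 108, 104 and 106 FPKM at day 0, 69.7, 64.4 and 55.9 at day 4 and 59.3, 57.6 and 56.7 at day 8. Plxna1 (18844), a partner of neuropilins and of Sema6d, read 80.4, 67.1 and 72.2, then 53.3, 47.1 and 39.8, then 47.1, 47.6 and 46.9. In both genes every later sample lay below day 0 while days 4 and 8 overlapped, with early log2 fold changes of -0.67 ± 0.0641 and -0.58 ± 0.0851 (edgeR adjusted p = 1.0e-07 and 1.5e-05), under 2-fold. Plxna3 (18846) read 17.6, 16.4 and 16.7 FPKM, then 8.83, 7.71 and 7.31, then 7.74, 7.74 and 7.32, with days 4 and 8 overlapping below day 0. It was called lower early (-1.02 ± 0.0622, edgeR adjusted p = 3.9e-10) and over the whole process (-1.04 ± 0.0624, 3.0e-10). The early value was -0.99 without day 0 replicate 1 and -0.96 without day 4 replicate 3, under 2-fold in both cases.

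Plxnd1 (67784), the plexin that Sema3e binds without a neuropilin, went the other way. It read 37.4, 34.8 and 35.5 FPKM at day 0, 61.5, 61.9 and 56.2 at day 4 and 58.9, 59.9 and 60.4 at day 8. Days 4 and 8 overlapped and lay above day 0. The log2 fold change was 0.80 ± 0.0517 early (edgeR adjusted p = 7.7e-10), 0.04 ± 0.0510 late (0.537) and 0.85 ± 0.0517 over the whole process (4.0e-10), under 2-fold. Its share of the summed plexin FPKM was 14.9% ± 0.126 (SD, n = 3) at day 0, 32.5% ± 1.73 at day 4 and 33.5% ± 0.527 at day 8, while Plxnb2 held 43.8% ± 1.08, 34.2% ± 0.440 and 32.4% ± 0.639. At day 8 the samples of Plxnd1 and Plxnb2 overlapped, so their order is within the spread.

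**Figure D3:**
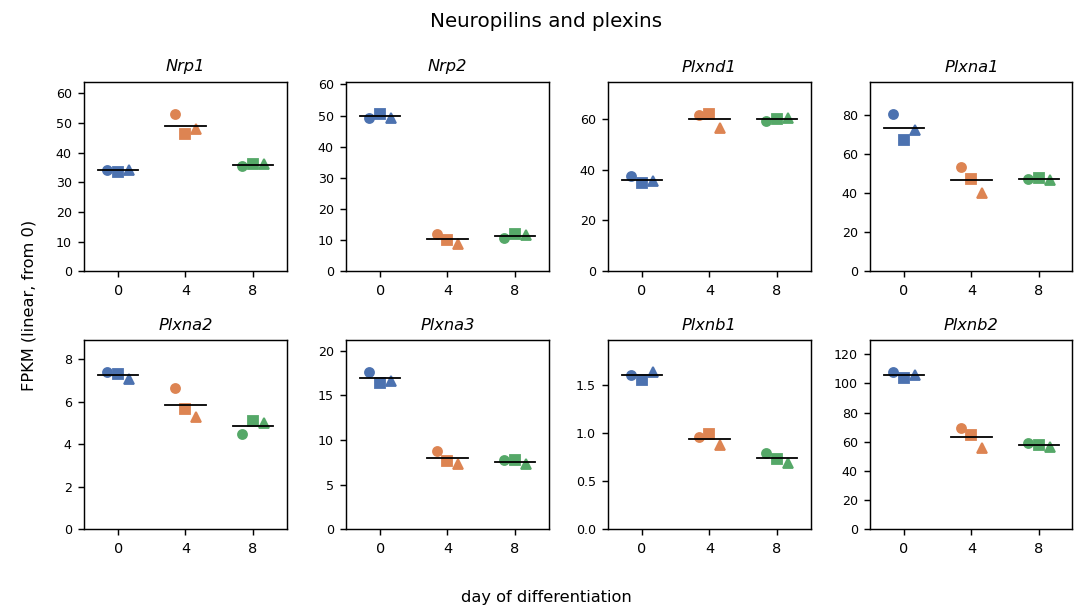
FPKM (y axis, linear from 0) of the neuropilins and the 6 plexins with a mean of at least 1 FPKM on a day, by day of differentiation (x axis), with a point per sample (circle, square and triangle for replicates 1, 2 and 3) and a line at the mean. Nrp2 drops from about 50 FPKM (49.7 on average) to 10.3 at day 4, and Plxnd1 is the only plexin here with all later samples above day 0.

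The remaining plexins had lower levels than those above. Plxnb1, a receptor of Sema4d, read 1.61, 1.56 and 1.64 FPKM at day 0, 0.96, 0.99 and 0.88 at day 4 and 0.80, 0.73 and 0.69 at day 8. Every sample lay below those of the day before, and it was called lower over the whole process (-1.01 ± 0.0973, edgeR adjusted p = 1.2e-07). That value lay on the 2-fold line. It was -0.99 without day 0 replicate 3 or day 4 replicate 2, -0.9954 without day 8 replicate 2 and -0.949 without day 8 replicate 3, and it was also under 2-fold with RLE factors, DESeq2, a stricter count filter or a separate fit (-0.9992 to -0.9927) and with limma on log2(FPKM + 1) (-0.58). Plxna2 averaged 7.26, 5.88 and 4.88 FPKM and fell in every comparison under 2-fold (largest edgeR adjusted p = 0.0254). Plxna4 counts were 175, 214 and 201 at day 0, 55, 48 and 32 at day 4 and 26, 30 and 28 at day 8, below 1 FPKM, and were called lower early (-2.09 ± 0.173) and over the whole process (-2.73 ± 0.188, edgeR adjusted p = 1.8e-09). Plxnb3 stayed at or below 0.21 FPKM, with no comparison past the test. Plexins summed to 242 ± 10.7 FPKM at day 0, 185 ± 18 at day 4 and 178 ± 0.894 at day 8.

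In the ephrin families the transmembrane ligand Efnb2 fell early, as did Epha2 and Epha4, the 2 tested members of the 8 A-type receptors. Efnb2 (13642), which marks arterial vessels and signals in both directions, read 19.2, 21.2 and 20.6 FPKM at day 0, 3.78, 3.05 and 2.90 at day 4 and 5.02, 4.52 and 4.31 at day 8. The 3 days did not overlap, and both later days lay far below day 0. Its log2 fold change was -2.58 ± 0.0833 early (edgeR adjusted p = 1.6e-13), 0.55 ± 0.0923 late (1.4e-04) and -2.02 ± 0.0796 over the whole process (1.7e-12). Efnb1 (13641), its close relative, read 15.9, 15.0 and 15.2 FPKM, then 10.5, 11.1 and 10.6, then 19.5, 18.7 and 17.1. Its days did not overlap either, with day 4 lowest and day 8 highest, and the log2 fold changes were -0.45 ± 0.0583 early and 0.82 ± 0.0576 late (edgeR adjusted p = 4.1e-06 and 9.7e-09). Efnb2 made up 56.5% ± 2.12 (SD, n = 3) of the summed ephrin-B FPKM at day 0, 22.4% ± 2.78 at day 4 and 19.8% ± 0.472 at day 8.

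Of the 5 ephrin-A ligands, which are tethered by a lipid anchor, only Efna3 was called in edgeR with TMM factors and all samples. Efna3 (13638) read 2.92, 2.36 and 2.35 FPKM at day 0, 0.78, 0.81 and 1.26 at day 4 and 1.19, 1.23 and 1.16 at day 8. Days 4 and 8 overlapped below day 0. It was called lower early (-1.35 ± 0.219, edgeR adjusted p = 4.2e-05), and over the whole process (-0.98 ± 0.21, 6.0e-04) it fell by slightly less than 2-fold (-1.03 without day 0 replicate 2 or 3, -1.09 with library size alone in place of TMM factors and -1.02 with limma on log2(FPKM + 0.1)). Efna1 averaged 9.30, 7.02 and 8.77 FPKM, Efna4 9.02, 8.90 and 7.59, and Efna5 8.39, 7.99 and 10.1. Efna1 was lower early (-0.34, edgeR adjusted p = 0.00758) and higher late (0.36, 0.00837), Efna5 was higher late (0.38, 1.2e-04), and Efna4 did not pass the test in any comparison. Efna2 and Efnb3 stayed at or below 0.61 FPKM and were called only without 1 library, Efna2 late (1.13 without day 4 replicate 2) and Efnb3 early (1.19 without day 0 replicate 1).

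Epha2 (13836), an A-type receptor tyrosine kinase, read 11.1, 12.7 and 10.5 FPKM at day 0, 1.96, 1.57 and 1.56 at day 4 and 2.45, 2.17 and 1.97 at day 8. Day 0 lay far above the other days, and the lowest day 8 sample was barely above the highest day 4 sample. Its log2 fold change was -2.68 ± 0.102 early (edgeR adjusted p = 1.1e-12), 0.42 ± 0.12 late (0.00969) and -2.26 ± 0.0976 over the whole process (5.3e-12). Epha4 (13838), the A-type receptor that also accepts B-type ephrins, read 4.19, 4.61 and 4.60 FPKM, then 0.73, 0.67 and 0.50, then 0.85, 0.77 and 0.78. Its days did not overlap and day 4 was lowest. The log2 fold change was -2.75 ± 0.111 early (edgeR adjusted p = 2.5e-12) and -2.37 ± 0.107 over the whole process (9.6e-12), with 0.39 ± 0.135 late (0.0288). Epha1, Epha5, Epha6, Epha7, Epha8 and Epha10 stayed at or below 0.18 FPKM and were not tested, so EphA FPKM summed to 16.0 ± 1.14, 2.47 ± 0.335 and 3.15 ± 0.264 on days 0, 4 and 8.

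None of the B-type receptors was called in edgeR with TMM factors and all samples. Ephb4 (13846), the venous partner of Efnb2 and the most abundant Eph receptor on each day, read 50.1, 48.3 and 48.4 FPKM at day 0, 41.4, 41.3 and 35.5 at day 4 and 42.6, 41.0 and 41.6 at day 8. The later days overlapped slightly below day 0, and the change was -0.24 ± 0.0571 early (edgeR adjusted p = 0.00124) and -0.12 ± 0.0570 over the whole process (0.0782). Ephb3 (13845) read 27.4, 23.0 and 25.6 FPKM, then 16.7, 15.9 and 14.3, then 23.4, 22.6 and 22.8. Its day 4 samples lay below all others while days 0 and 8 overlapped, with -0.63 ± 0.0672 early and 0.59 ± 0.0675 late (edgeR adjusted p = 4.2e-07 and 2.5e-06). Ephb2 averaged 5.98, 2.88 and 3.79 FPKM, just under a 2-fold fall early (-0.99 ± 0.0620, edgeR adjusted p = 5.8e-10) and past it without day 4 replicate 1 (-1.001) or 2 (-1.05), with library size alone (-1.05) or with limma on log2(FPKM + 0.1) (-1.03). Ephb6, which lacks kinase activity, was highest at day 4, at 3.46, 5.38 and 3.90 FPKM (0.70 ± 0.103 early, edgeR adjusted p = 1.6e-05). The share of Ephb4 in the summed Eph FPKM was 49.1% ± 0.398 (SD, n = 3) at day 0, 59.9% ± 1.01 at day 4 and 55.3% ± 0.208 at day 8.

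**Figure D4:**
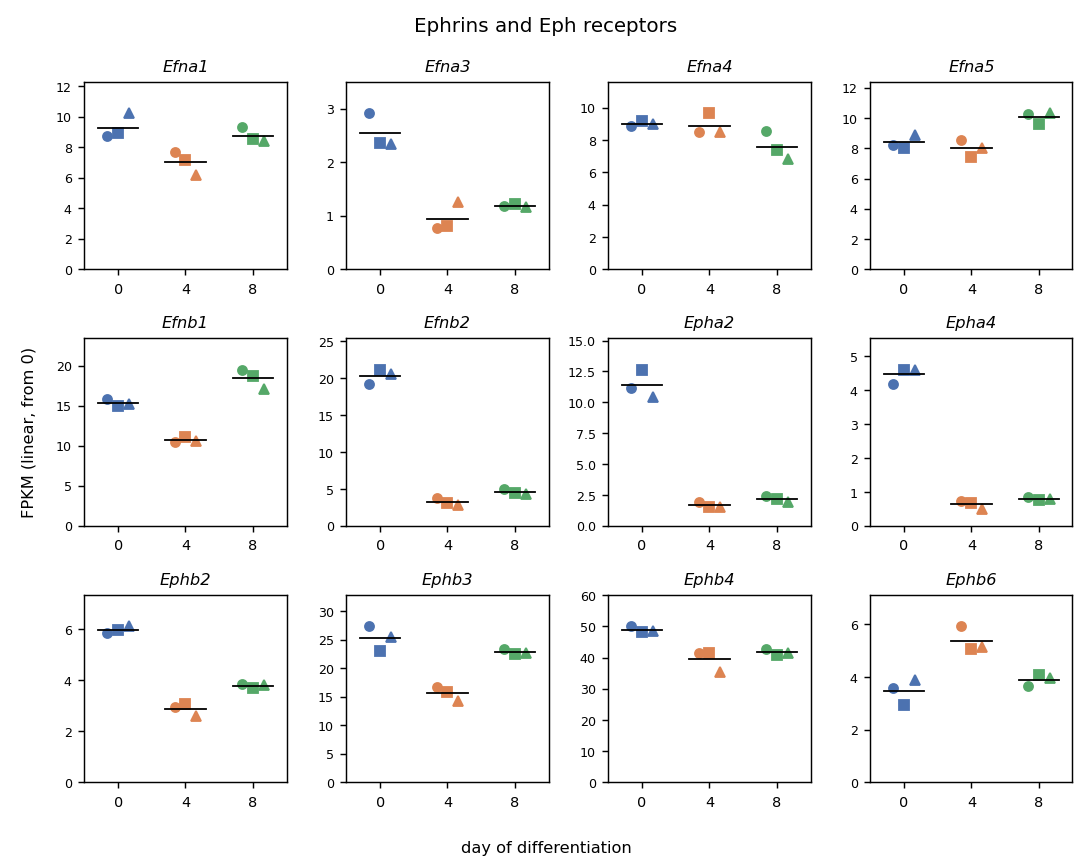
FPKM (y axis, linear from 0) of the 6 ephrins and 6 Eph receptors with a mean of at least 1 FPKM on a day, by day of differentiation (x axis), with a point per sample (circle, square and triangle for replicates 1, 2 and 3) and a line at the mean. Efnb2, Epha2 and Epha4 hold their day 0 samples far above the later ones, and Efnb1 and Ephb3 have their lowest samples at day 4.

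Of the Slits, large secreted ligands, Slit3 was the most abundant guidance ligand on every day. Slit3 (20564) read 64.5, 56.7 and 62.7 FPKM at day 0, 63.4, 59.1 and 51.6 at day 4 and 57.3, 59.5 and 60.4 at day 8. All 3 days overlapped, and its log2 fold change of 0.06 ± 0.0695 over the whole process did not pass the test (edgeR adjusted p = 0.466). Slit2 (20563) read 29.6, 32.0 and 32.4 FPKM, then 8.22, 6.75 and 5.72, then 8.64, 9.24 and 8.90. No days overlapped, and both later days lay well below day 0. It fell early (-2.12 ± 0.0904, edgeR adjusted p = 4.7e-12), was higher again late (0.42 ± 0.0915, 0.00149) and was -1.70 ± 0.0885 over the whole process (5.5e-11). Slit2 held 33.8% ± 2.28 (SD, n = 3) of the summed Slit FPKM at day 0, and 10.6% ± 0.803 and 13.1% ± 0.305 on days 4 and 8.

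The Robo receptors were close to absent in these libraries. Robo1 counts were 4, 5 and 9 at day 0, 28, 30 and 25 at day 4 and 17, 9 and 13 at day 8, at most 0.19 FPKM. It was called higher early (2.22 ± 0.349, edgeR adjusted p = 3.2e-05), lower late (-1.04 ± 0.30, 0.0101) and higher over the whole process (1.18 ± 0.403, 0.0155). The late call was lost without day 4 replicate 2 (-0.955) or day 8 replicate 2 (-0.83), and the whole-process call without day 0 replicate 1 (0.94) or day 8 replicate 1 (0.96). With limma on log2(FPKM + 0.1) all 3 calls were lost (0.97 early, -0.59 late and 0.38 over the whole process). Robo3 counts were 28, 22 and 29 at day 0, at most 0.3 FPKM, then 1, 2 and 2, then 3, 2 and 0, which is at or under the detection floor of 3 counts, and it was called lower early and over the whole process. Robo2 and Robo4 did not exceed 0.04 FPKM, nor did Slit1.

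The netrins Ntn1 and Ntn3 rose in all 3 comparisons, mostly by less than 2-fold, and the UNC5 receptors Unc5b and Unc5c fell early. Ntn1 (18208), the founding netrin, averaged 11.5 ± 0.585 FPKM at day 0, 14.1 ± 0.685 at day 4 and 15.9 ± 0.684 at day 8, with each day above the one before. Its rise of 0.58 ± 0.0581 over the whole process (edgeR adjusted p = 2.0e-07) was under 2-fold. Ntn3 (18209) read 0.99, 1.07 and 1.30 FPKM, then 1.88, 1.96 and 1.81, then 3.64, 3.66 and 3.91. No days overlapped, and the log2 fold change was 0.82 ± 0.113 early, 1.03 ± 0.0979 late and 1.85 ± 0.106 over the whole process (edgeR adjusted p = 8.3e-06, 3.3e-07 and 1.7e-10). The late value was within reach of the 2-fold line and was 0.998 without day 4 replicate 3, 0.99 with library size alone, and 0.72 and 0.95 with limma on log2(FPKM + 1) and log2(FPKM + 0.1). Ntn5 had counts of 6.14, 1.11 and 6.36 at day 0 and 12.3, 18.9 and 14.7 at day 8, below 1 FPKM, and was called higher over the whole process (1.88 ± 0.537, edgeR adjusted p = 0.00525). Without day 4 replicate 1 it was also called early (1.60). Of its 50-base transcript stretches 18.5% also occur in other genes, the highest share among the guidance genes.

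Unc5b (107449), the vascular netrin receptor, read 28.9, 27.4 and 26.5 FPKM at day 0, 8.99, 8.37 and 7.70 at day 4 and 15.1, 16.4 and 17.7 at day 8. No days overlapped, with day 4 lowest and day 8 between the others. It fell early (-1.66 ± 0.0695, edgeR adjusted p = 3.8e-12), rose late (1.02 ± 0.0703, 8.0e-09) and was -0.64 ± 0.0660 over the whole process (2.7e-07). The late call was lost without day 4 replicate 3 (0.96) or day 8 replicate 3 (0.98), with library size alone in place of TMM factors (0.97) and with limma on log2(FPKM + 1) (0.90) or log2(FPKM + 0.1) (0.96). Unc5c (22253) read 7.50, 8.22 and 8.02 FPKM, then 1.43, 1.23 and 1.12, then 1.99, 2.15 and 1.79. Its days did not overlap, and the later days lay far below day 0, with -2.58 ± 0.0832 early (edgeR adjusted p = 1.5e-13), 0.69 ± 0.0922 late (1.4e-05) and -1.89 ± 0.0784 over the whole process (3.3e-12). Unc5a, Unc5d and Ntn4 did not exceed 0.1 FPKM. Unc50, a nuclear and Golgi membrane protein that only shares the letters, averaged 18.3, 23.1 and 23.4 FPKM.

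**Figure D5:**
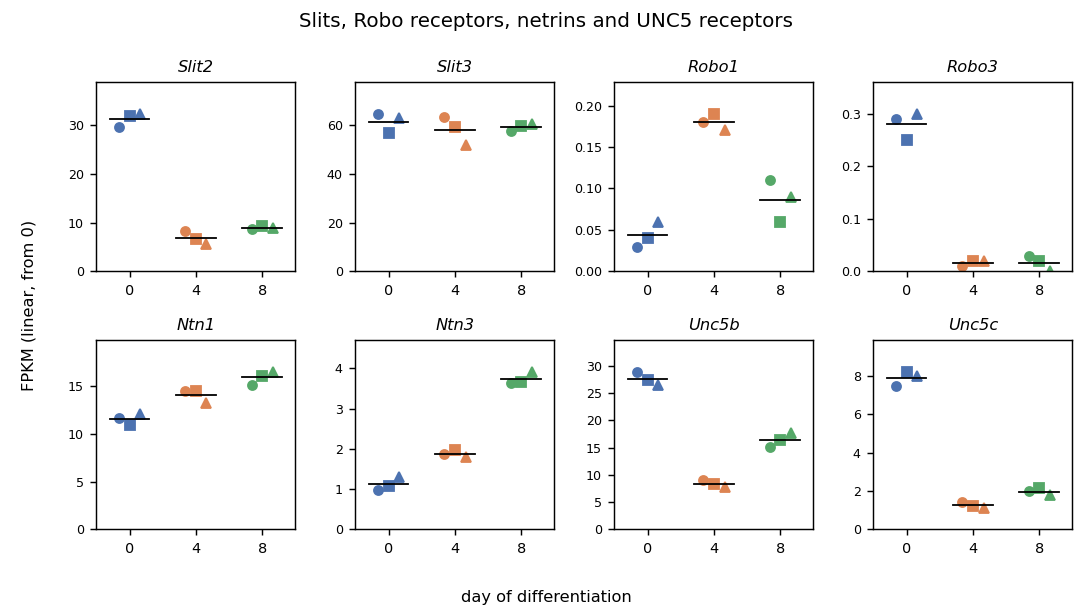
FPKM (y axis, linear from 0) of Slits, Robo receptors, netrins and UNC5 receptors, by day of differentiation (x axis), with a point per sample (circle, square and triangle for replicates 1, 2 and 3) and a line at the mean. Slit2, Unc5b and Unc5c hold their day 0 samples above all later ones, Slit3 overlaps between the days, and the Robo panels reach only 0.3 FPKM.

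On the FPKM scale the order of the ligands changed. At day 0 it ran from Slit3 (61.3) over Slit2 (31.3), Sema3c (23.6), Sema3f (21.6), Efnb2 (20.3) and Sema3a (17.2), with Sema3c overlapping Sema3f and Sema3f overlapping Efnb2. At day 8 it ran from Slit3 (59.1) over Sema3c (23.7), Sema3f (22.1), Sema3g (18.7), Efnb1 (18.4), Sema3a (17.4), Sema6d (17.0) and Ntn1 (15.9), and from Sema3c on each neighbour overlapped the next. Among receptors and co-receptors the order at day 0 was Plxnb2 (106), Plxna1 (73.2), Nrp2 (49.7), Ephb4 (48.9), Plxnd1 (35.9) and Nrp1 (34.0), in which only Nrp2 and Ephb4 overlapped. At day 8 it was Plxnd1 (59.7), Plxnb2 (57.9), Plxna1 (47.2), Ephb4 (41.7), Nrp1 (36.0) and Ephb3 (22.9), with only Plxnd1 and Plxnb2 overlapping.

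Known partners of these families were read from a list of 84 genes, 83 of them in the files and 66 tested. Early, 8 were called higher (12.1%, against 9.77% of all genes) and 10 lower (15.2%, against 7.98%). Late, 3 were called higher (4.55%, against 4.24%) and 2 lower (3.03%, against 2.81%), which is close to the background, and over the whole process 8 were called higher (12.1%, against 10.3%) and 8 lower (12.1%, against 7.7%), a split that library size alone in place of TMM factors turned into 7 and 11, while all genes went from 1356 higher and 1013 lower to 1190 and 1214. Their median log2 fold change was -0.13 early, 0.08 late and -0.14 over the whole process.

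Receptors and surface partners came first in this list. The netrin receptor Dcc was listed in 2 of the 9 samples, at 0.01 FPKM, whereas the related receptor Neo1 (neogenin) read 38.6, 37.6 and 38.5 FPKM at day 0, 20.2, 17.8 and 16.6 at day 4 and 20.9, 19.8 and 20.9 at day 8. Neo1 was lower early by about 2-fold (-1.003 ± 0.0616, edgeR adjusted p = 4.3e-10), and fell just short of that line without day 0 replicate 1 (-0.99), day 0 replicate 3 (-0.9972) or day 4 replicate 3 (-0.94), and with a stricter count filter (-0.9976) or with none. Rgma, a neogenin ligand, went up from 33.8, 28.2 and 30.8 FPKM at day 0 over 41.7, 41.9 and 39.9 at day 4 to 60.9, 58.9 and 59.3 at day 8, and the rise over the whole process was 1.06 ± 0.0587 (edgeR adjusted p = 1.2e-10), or 0.99 without day 0 replicate 2, 0.95 with library size alone, and 0.93 and 0.95 with limma on log2(FPKM + 1) and log2(FPKM + 0.1). L1cam, an adhesion molecule that joins neuropilin-1, fell early (-2.05) and rose late (1.58, edgeR adjusted p = 8.6e-09 and 1.2e-06) at 1.85, 0.427 and 1.24 FPKM. Flrt2, a ligand of UNC5 receptors, was called lower over the whole process (-1.04, edgeR adjusted p = 6.2e-08), and Adora2b, an adenosine receptor, early and over the whole process (-1.69 and -1.12). Flrt1 was called lower at or below 0.2 FPKM, and its whole-process call had adjusted p of 0.0902 without day 0 replicate 1 and 0.1 without day 8 replicate 3 in edgeR. With limma on log2(FPKM + 0.1) both Flrt1 calls were lost (-0.77 early and -0.67 over the whole process).

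Small GTPases that plexins use were among the partners with clear changes. Rnd2 read 11.8, 10.9 and 10.6 FPKM at day 0, 31.7, 34.4 and 36.6 at day 4 and 31.1, 28.2 and 28.0 at day 8, a rise of 1.69 ± 0.0877 early (edgeR adjusted p = 5.5e-11). Rnd3 read 43.2, 46.1 and 45.3, then 15.8, 13.6 and 16.4, then 33.0, 30.9 and 30.9, with -1.49 ± 0.0602 early and 1.09 ± 0.0608 late (edgeR adjusted p = 2.5e-12 and 6.8e-10). So Rnd2 was high from day 4 on and Rnd3 was lowest at day 4. Rnd1, which binds plexins directly, was 3.87, 1.93 and 5.79 FPKM on average and rose late by 1.63 ± 0.122 (edgeR adjusted p = 2.0e-08). Rras, a target of the GTPase-activating domain of plexins, went from 55.2 over 82.8 to 114 FPKM and was called higher over the whole process (1.15 ± 0.0588, edgeR adjusted p = 4.2e-11).

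Effectors of the cytoskeleton changed in both directions. Called lower early were Pak1, a kinase downstream of Rac (-1.45), the exchange factors Tiam1 (-1.90), Trio (-1.09) and Farp1 (-1.01), and the actin-binding Ablim1 (-1.01), with edgeR adjusted p of at most 7.0e-08. Among those called higher early were the Rac-inactivating chimaerins Chn1 (3.43) and Chn2 (1.65), the actin-oxidising family member Mical3 (1.51), the cofilin kinase Limk1 (1.09), the exchange factor Vav3 (1.03) and the kinase Fes (1.35), with edgeR adjusted p of at most 5.1e-04. Chn1 had 0.26, 0.28 and 0.20 FPKM at day 0 against 2.28, 2.73 and 2.71 at day 4, and Limk1 16.4, 19.5 and 17.2 against 32.2, 39.0 and 37.2, without overlap in either gene. Fes and Cdk5r1, both below 1 FPKM on every day, were the 2 partners called lower late (-2.51 and -1.18). Calls close to 2-fold were lost without a single library for Ablim1 early (day 4 replicate 2, -0.99, or day 4 replicate 3, -0.89), Vav3 early (day 0 replicate 2, 0.94, or day 4 replicate 1, 0.97, and also with library size alone, 0.97) and Cdk5r1 late (day 8 replicate 3, -0.912), whereas Cdk5r1 gained a whole-process call without day 0 replicate 2, day 8 replicate 1 or day 8 replicate 2 (-1.16 to -1.06). Farp1 early was -0.9976 without day 0 replicate 1 and -0.93 without day 4 replicate 3, and over the whole process its -1.003 moved to between -0.9985 and -0.9646, under 2-fold, without day 0 replicate 1 or 3, day 4 replicate 2, or day 8 replicate 2 or 3, and to between -0.9974 and -0.9887 with RLE factors, DESeq2, another count filter or a separate fit. Fes over the whole process (-1.16) had adjusted p of 0.057 without day 0 replicate 3 and 0.0781 without day 8 replicate 2 in edgeR, and 0.0519 in DESeq2. With limma on log2(FPKM + 0.1) the calls of Fes early (0.99) and over the whole process (-0.77) and of Cdk5r1 late (-0.93) were lost.

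The adipocyte markers and the genes of dividing cells moved over the same days as these families. Among the day 4 samples the adipocyte list was lowest in replicate 1 (4598 FPKM) and highest in replicate 3 (6686 FPKM). Receptors and co-receptors summed to 347, 322 and 291 FPKM in day 4 replicates 1, 2 and 3, and ligands to 222, 212 and 198, the opposite order. Some members, such as Sema3g and Sema4g, rose from replicate 1 to 3. A link between these orders was not tested. The genes of the preadipocyte and fibroblast list did not move as one. Early, 6 of the 8 passed the adjusted p in edgeR as lower, with Dlk1 (-2.13) and Ly6a (-1.90) beyond 2-fold, whereas Pdgfra was higher (0.84 ± 0.0517, edgeR adjusted p = 4.3e-10) and S100a4 was at 0.09 ± 0.0695 (0.261). Late, 3 were higher, Dlk1 (1.24, called), Col1a1 (0.85) and Thy1 (0.45), and 3 were lower, Pdgfra (-0.59), Vim (-0.48) and S100a4 (-0.19), with edgeR adjusted p of at most 0.0339. Over the whole process 4 were lower and 2, Col1a1 (0.67) and Pdgfra (0.25), were higher. Of the 4 genes of dividing cells, Mki67 and Top2a were called lower early. Ccnb1 (-0.81) and Cdk1 (-0.41) were lower early by less than 2-fold (edgeR adjusted p = 2.3e-06 and 0.00209). Both were higher late (0.27 and 0.29, edgeR adjusted p = 0.0468 and 0.0307), and Cdk1 did not pass the test over the whole process (-0.12, 0.306). The part of the share of adipocytes, of dividing cells or of the changes of medium in these results was not tested, and time, medium and differentiation cannot be told apart in this design.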

How the data were processed

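RNA was measured in 9 samples, 3 at each of 3 days of differentiation. The labels' extraction text names a BGISEQ kit, whereas the paper names an Illumina HiSeq platform, so the sequencing platform is uncertain. After quality filtering the authors mapped reads with HISAT/Bowtie2 and quantified genes with RSEM, which gave the deposited expected count per gene, not normalized (29.8% of those above 0 are not whole). The deposited FPKM values are scaled to gene length and sample depth, and the lowest listed FPKM is 0.01. The gene length in the same files is RSEM's length per sample as deposited. The submitters' processing notes name CASAVA 1.4 and Bowtie2, and the genome build and the other versions are not given in the sources used here. A gene not listed in a sample was taken as 0.

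Expected counts were rounded, filtered with filterByExpr and fitted in R 4.3.3 with edgeR 4.0.16 (TMM factors, glmQLFit and glmQLFTest, 1 coefficient per day, all 9 samples). Genes were called at a Benjamini-Hochberg adjusted p under 0.05 over the 13154 genes tested and a log2 fold change beyond 1. The standard error is the log2 fold change divided by the square root of F. FPKM means and SDs are over 3 samples. The count floor was 3 per sample, which equals 0.147 to 0.165 CPM and covers counting error only. Alternatives used DESeq2 1.42.0, limma 3.58.1 on log2(FPKM + 1) and log2(FPKM + 0.1), edgeR's exact test, other scalings and filters, separate fits, a replicate block and the omission of each sample.

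Members of the families were taken by symbol. Those with a mean of at least 1 FPKM on a day that were called are given in every sample, as are several expressed members without a call. The other members are given by counts, levels or ranges, and partners from a list of 84 genes where called. Itgb1 and Dcc are named beyond that rule, after their values were seen. The members and the lists were chosen with earlier results of these data known. The share of 50-base transcript stretches found in other genes (GENCODE vM21) was at most 18.5% for a member. The early comparison alone was also run on simulated counts with known changes at day 4. That simulation did not cover the late comparison, changes in genes with few counts, or the FPKM summaries. Results for some genes of the lists are not reported here.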

Additional observations from a re-analysis of the deposited data

How the results depend on the processing

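Counts of called genes depended most on how low values were treated. With limma on log2(FPKM + 1), which shrinks changes of genes near or below 1 FPKM, guidance genes called higher or lower numbered 2 and 8 early (6 and 13 in edgeR), 1 and 0 late (8 and 1) and 4 and 7 over the whole process (9 and 11), and partners 3 and 6 early (8 and 10), 0 lower late (2) and 4 lower over the whole process (8). Counts of all genes fell too with this setting, from 1285 higher and 1050 lower to 708 and 565 early, from 558 and 370 to 224 and 136 late, and from 1356 and 1013 to 753 and 528 over the whole process. Of the 87 calls of guidance genes and partners, 45 were lost there, 13 with log2(FPKM + 0.1) and 4 with library size alone, which left 6 guidance genes higher late (512 of all genes). With log2(FPKM + 0.1), 0 guidance genes and 1 partner were called lower late (306 of all genes). Requiring at least 10 counts in every sample, which removes the low members, left 4 guidance genes higher late, 0 lower late and 4 higher over the whole process, with 0 partners lower late and 5 lower over the whole process. Of the 11799 genes tested with that filter, 310 were called higher and 173 lower late, and 913 and 682 over the whole process. Without a filter, 2 guidance genes were lower late, and 5 of the 17 members left untested were called, with at most 14 counts in a sample (Sema4d lower early and over the whole process, Plxnc1 lower early and higher late, Unc5d lower late, Epha7 higher and Sema3e lower over the whole process). Of the 19019 genes tested without a filter, 637 were called higher and 476 lower late. The share of called genes at such low counts was not taken. No named gene with a call changed direction under any alternative. Library size alone moved the median log2 fold change of all genes over the whole process from -0.02 to -0.13.

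Leaving out 1 sample at a time gave 5 to 7 guidance genes higher and 13 to 15 lower early, 7 to 11 and 0 to 1 late, and 8 to 9 and 9 to 12 over the whole process. For partners the ranges were 7 to 9 and 9 to 12 early, 3 to 3 and 1 to 2 late, and 8 to 11 and 7 to 10 over the whole process. Samples with the same replicate number did not deviate together (correlations of -0.0348 to 0.0750 over 9 pairs), so the numbers were not used as pairs. A fit with the replicate block kept all 348 gene values on their side of the threshold and the counts at 6 and 13 early, 8 and 1 late, and 9 and 11 over the whole process. At this depth 17 members had too few counts to pass the filter.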

Other observations

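The length that RSEM assigned to Nrp2, an average over its transcripts, was 6131, 6018 and 6078 bases at day 0, 6245, 6309 and 6274 at day 4, and 6094, 5994 and 6091 at day 8. The day 4 samples lay above all others, and the FPKM of Nrp2 is scaled to that length. No test was made of this difference, which was noticed after the values were seen.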
